A study of Danio rerio with 6 samples.

Results

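The lncRNAs described here are the assembled long non-coding RNAs of zebrafish ZF4 cells for which the deposited table gives a transcription factor gene as the nearest named gene. They were chosen by gene name alone, with names beginning as those of the hox, fox, pax, tbx, nuclear receptor, klf, nfi, mef2, zbtb, znf and related families. This rule found 141 of the 8363 lncRNA transcripts, at 139 loci and beside 103 different genes. By the study's account these 8363 are presumed lncRNAs left after transcripts matching known ones were removed. Known lncRNAs of these cells are therefore not among them, and all lncRNAs below means these 8363. Of the 103 names, 75 were matched by symbol in the RefSeq gene table of the zebrafish assembly GRCz12tu, and all 75 are protein coding genes there. By name, 139 members fit the description. The other two were matched by spelling only: rars2 encodes a mitochondrial arginyl-tRNA synthetase, and esrp2 a regulator of splicing.

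ZF4 is a fibroblast-like line derived from zebrafish embryos. Total RNA came from 3 control cultures, grown at 28°C, and from 3 cultures held at 18°C for 30 days, called cold acclimated cells. All 6 cultures were of this single line, and the study compared them to find lncRNAs that respond to long exposure to cold. The table gives each transcript 1 value for each temperature, the authors' mean FPKM over the cultures of a group. FPKM counts fragments relative to the length of the transcript and to the number of mapped fragments, so levels of transcripts of different length can be set side by side. Values of the single cultures were not used here, so no spread between cultures can be given, and these values hold no replicate check of any difference below. The depth of the libraries is likewise unknown from the table. Fibroblast marker genes could not be checked, since the table holds lncRNAs only. In such bulk samples, fewer cells that make a transcript and less of it per cell cannot be told apart.

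Transcription factors bind DNA or join those that do, and set which genes a cell transcribes. Many are encoded by families that differ in the fold of their DNA-binding part, such as the homeodomain, the forkhead, the ligand-regulated nuclear receptor and the C2H2 zinc finger. Genes for developmental regulators are often surrounded by non-coding transcripts, which can arise at promoters and enhancers, inside introns or on the opposite strand. The table gives no strand, and whether a transcript lies within the named gene or to a side of it was not determined. No gene was named for 5159 of the 8363 lncRNAs. The study placed most of its lncRNAs between genes and many of the others in introns. Members may therefore lie inside or across the gene named. The word beside is used below for a transcript near or within its named gene, and means nothing more.

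For a single member, sequences were given by the study. MSTRG.9442.1, a transcript of 526 nt in 1 exon beside bach2a on chromosome 17 (15706740 to 15707265, GRCz10), had a primer pair for quantitative PCR. The pair is shown here because this transcript heads the members higher in the cold by the log2 ratio used below.
MSTRG.9442.1 forward: cgactctctgtggtcgttaaa
MSTRG.9442.1 reverse: ggaggccatgatggacaaa
The forward primer has 21 bases and the reverse primer 19 bases. They are printed in lower case throughout because no part is singled out. The study measured MSTRG.9442.1 by quantitative PCR in independent replicates. It reported that the trends of the lncRNAs it measured this way matched its sequencing. Those measurements were not used here. All positions given here are those of the file, on GRCz10.

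Of the 141 members, 100 had 1 exon (70.9%), 27 had 2 exons and 14 had 3 or more. Among lncRNAs at other named genes, 59.6% had 1 exon, and over all lncRNAs 70.2% did. The members were between 202 and 7403 nt long, the middle one 514 nt, and the quartiles lay at 324 and 991 nt. For lncRNAs at other named genes the median was 503 nt. The longest member lay beside pbx1a, whose product is a homeodomain partner of Hox proteins, and the member with the most exons (8) lay beside tbx6l. An interval shared with another listed lncRNA was found for 14 members (9.93%), against 20.1% of lncRNAs at other named genes and 17.1% of all lncRNAs. StringTie can divide reads between overlapping transcripts, so the values of these 14 are less certain. Overlap with transcripts that are not listed, such as mRNAs, was not examined, so other members may share this limit.

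The members lay on 24 chromosomes, but unevenly. Chromosome 4 held 40 of them (28.4%), although it held 6.86% of all lncRNAs in the table. All 40 lay beside genes named znf, which encode C2H2 zinc finger proteins, a family known to fill arrays on the long arm of that chromosome. Chromosome 22 held 16 members, 14 of them beside znf genes. No other chromosome had more than 11. In all, 68 members lay beside 48 znf genes, and 73 lay beside 55 other genes.

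The members were transcripts of low level in both groups. Their median was 1.08 FPKM in control cells (quartiles 0.684 and 1.76) and 0.701 FPKM in cold acclimated cells (quartiles 0.309 and 1.15). For lncRNAs at other named genes the medians were 1.17 and 0.806 FPKM, and over all lncRNAs 1.12 and 0.736 FPKM. In control cells 77 members were above 1 FPKM, while in cold acclimated cells 44 were. Spliced members had the higher levels: with 2 or more exons the median was 1.76 FPKM at 28°C and 1.06 FPKM at 18°C, and with 1 exon it was 0.995 and 0.578 FPKM. This was also found for lncRNAs at other named genes. Their medians were 1.72 and 1.47 FPKM with 2 or more exons, and 0.959 and 0.578 FPKM with 1 exon. Only 2 members exceeded 10 FPKM in either group, beside znf277 and tbx6l, against 301 of all lncRNAs.

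Of the members with the highest mean over both groups, znf genes had several. MSTRG.19532.1 beside znf277, with 2 exons on chromosome 25 (21582298 to 21672184), came first with 10.01 FPKM at 28°C and 9.61 FPKM at 18°C. MSTRG.23204.1 beside znf1033 on chromosome 4, a transcript of 5 exons, had 4.95 and 6.42 FPKM. Both differed by less than 2-fold between the 2 temperatures, but the latter was just past 2-fold higher on the scaled values introduced below. The overlapping MSTRG.28716.2 and MSTRG.28716.1 beside znf367 had 4.58 and 3.26 FPKM at 28°C, and 3.44 and 2.92 FPKM at 18°C. MSTRG.22312.6 beside znf1120 had 4.72 and 2.99 FPKM. Of the 8 highest members the other four lay beside tbx6l, mef2ca, nfixa and nfatc3a and are described below with their families.

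**Figure D1:**
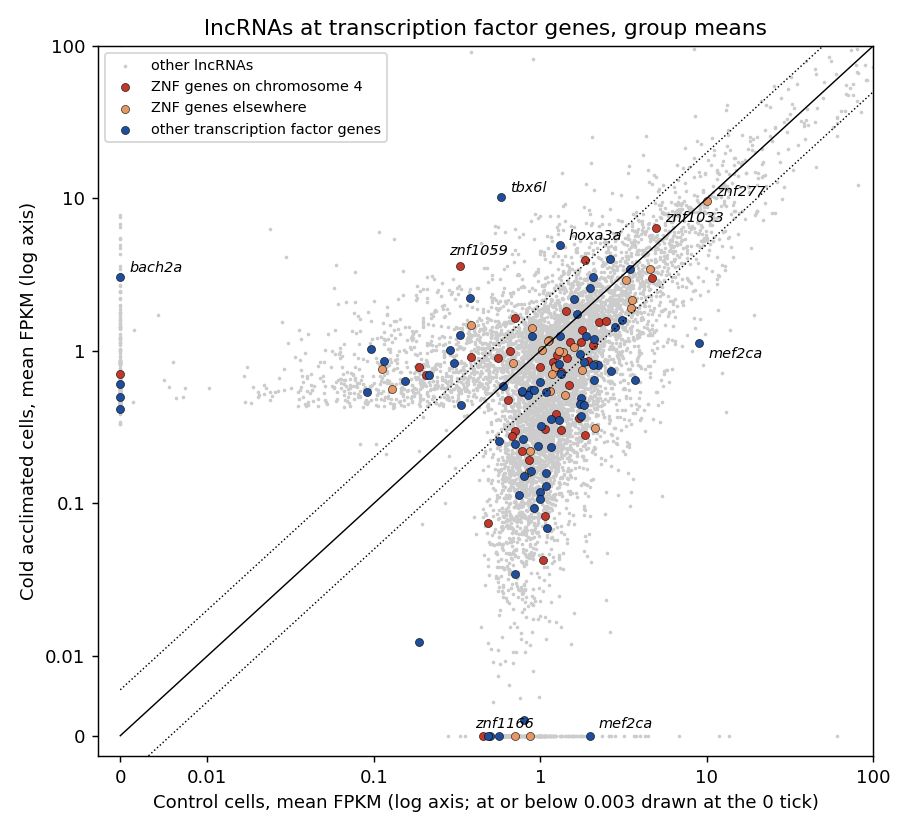
Mean FPKM of each lncRNA in control cells (horizontal) against cold acclimated cells (vertical), both on log axes, with values at or below 0.003 drawn at the tick for 0 and values above 100 outside the frame. Coloured points are the 141 members by the chromosome and family of their gene, grey points the other lncRNAs, the solid line marks equal means and the dotted lines 2-fold differences. Most members lie below the solid line, as the grey points do.

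For the response to cold, 0.1 FPKM was added to each mean and the log2 ratio of the 18°C value over the 28°C value was taken, which understates the change of low transcripts. Members above 0.5 FPKM in at least 1 group were counted, 135 of the 141, and a difference beyond 2-fold on this scale was called. By this rule 53 members (39.3%) were called lower in cold acclimated cells, and 39.4% of all 8108 lncRNAs past the filter were. Called higher were 24 members (17.8%), against 13.3% of all lncRNAs. The remaining 58 differed by less than 2-fold. A member above 0.5 FPKM in only 1 group could differ only in the direction of that group, because of the filter. The same holds for all lncRNAs. The share called lower was thus the same as the background, and the share called higher was above it, a difference for which no test was made. It was not seen with 1 FPKM added in place of 0.1, where 3.70% of the members and 3.9% of all lncRNAs were called higher.

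The median log2 ratio of the 135 members was -0.64, and over all lncRNAs past the filter it was -0.63. Of the 135, 97 had the lower mean at 18°C (71.9%), against 68.0% of all lncRNAs. Because the whole table was shifted, the same counts were made after the groups were scaled to a median log2 ratio of 0. On that scale 34 members were called lower (25.2%) and 33 higher (24.4%), against 23.9% and 23.5% of all lncRNAs. The members were then evenly divided: 19 were no longer called lower, and 9 were called higher on the scaled values only. A member called on the unscaled values in either direction kept its direction on the scaled ones, but members between -0.63 and 0 turned from lower to higher.

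The counts were also made apart for members beside znf genes and for the rest, and the difference between them was not tested. Of the 66 znf members past the filter, 21 were called lower (31.8%) and 10 higher (15.2%), with a median log2 ratio of -0.56. Of the other 69, 32 were called lower (46.4%) and 14 higher (20.3%), with a median of -0.90. After scaling, 24 of these 69 were called lower and 19 higher, and 10 and 14 of the 66 at znf genes. A list of further names spelled like those of transcription factor genes that the rule does not cover, such as nfe2l2a, hivep and tead3 genes, held 24 lncRNAs, of which 22 passed the filter. That list was also made by spelling, and it takes in hif1an, the gene of a hydroxylase, and mybpc2b, that of a muscle protein, neither of which was called on the unscaled values. Of the 22, 9 were called lower (40.9%) and none higher. After scaling, 5 of the 22 were called lower (22.7%) and 3 higher (13.6%).

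**Figure D2:**
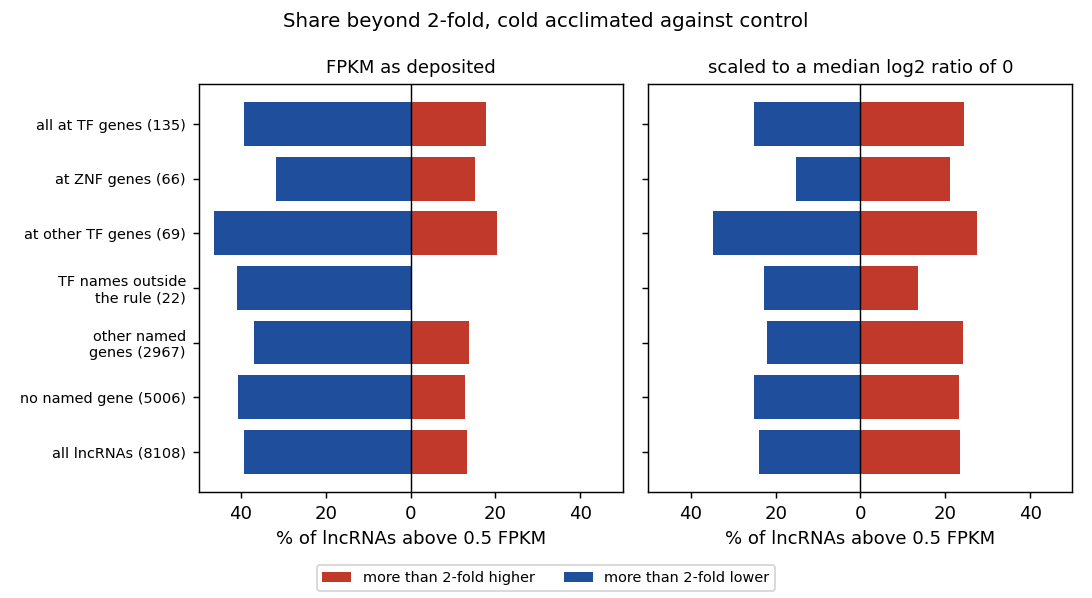
Share of lncRNAs above 0.5 FPKM that were more than 2-fold higher (red, to the right) or lower (blue, to the left) in cold acclimated cells, for each set named on the left with its number of lncRNAs in brackets. On the deposited values 39.3% of the members at transcription factor (TF) genes and 39.4% of all lncRNAs are called lower, and on the scaled values 25.2% and 23.9%.

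All 4 lncRNAs beside mef2ca were lower in cold acclimated cells. MEF2 proteins are MADS-box factors that activate muscle genes, and mef2ca is also known for its part in the zebrafish jaw skeleton. They lay within 87.0 kb of chromosome 10 (43716438 to 43803471). MSTRG.2266.4, with 3 exons and 1416 nt, had 9.003 FPKM at 28°C and 1.12 FPKM at 18°C, a log2 ratio of -2.90. MSTRG.2266.3, which overlaps it, had 1.98 FPKM in control cells and was listed at 0 in cold acclimated cells. MSTRG.2267.1 had 3.71 and 0.649 FPKM, with a log2 ratio of -2.35. MSTRG.2268.1 had 0.799 and 0.00381 FPKM, with a log2 ratio of -3.11. Each of the 4 was called lower, on the scaled values too, and their summed level was 15.5 FPKM at 28°C and 1.77 FPKM at 18°C. MSTRG.2266.3 and MSTRG.2268.1 were above 0.5 FPKM only at 28°C, so the filter allowed them only this direction. MSTRG.2266.4 and MSTRG.2267.1 were above it in both groups. MSTRG.2266.3 and MSTRG.2266.4 overlap, and MSTRG.2267.1 lies close to them, so the 4 may not count as separate observations. Over all lncRNAs past the filter, 39.4% were called lower, and 23.9% on the scaled values. The single lncRNA beside mef2ab, MSTRG.27460.1, had 1.08 and 0.541 FPKM and was not called.

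Nuclear factor I genes encode DNA-binding proteins that act in cell differentiation, among others in glia and muscle. Of the 8 lncRNAs beside them, 5 were called lower (62.5%) and 2 higher (25%), against 39.4% and 13.3% of all lncRNAs. The 5 were above 0.5 FPKM only at 28°C and the 2 only at 18°C, so the filter allowed only these directions. Beside nfia on chromosome 22, MSTRG.16690.1 had 0.916 FPKM at 28°C and 0.0930 FPKM at 18°C, and MSTRG.16691.1 had 0.501 FPKM and a listed 0. Beside nfic, MSTRG.29106.1 had 0.997 and 0.119 FPKM, with a log2 ratio of -2.32. These 3 transcripts were all lower in the cold.

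The lncRNAs beside the gene copies nfixa and nfixb differed. Such copies stem from the whole-genome duplication in the ancestry of teleost fishes. Beside nfixa on chromosome 1, MSTRG.1021.1 had 1.17 FPKM at 28°C and 0.234 FPKM at 18°C, and MSTRG.1022.1 had 1.09 and 0.0689 FPKM. The third, MSTRG.1023.1, of 4227 nt, had 3.48 and 3.44 FPKM, so the difference at nfixa was found in the shorter transcripts only. Beside nfixb on chromosome 3, both lncRNAs were called higher. MSTRG.20324.1 had 0.285 and 1.02 FPKM, with a log2 ratio of 1.54, and MSTRG.20325.1 had 0.0964 and 1.04 FPKM, with a log2 ratio of 2.53. The lncRNAs of the copies thus lay in opposite directions except for MSTRG.1023.1, which turned to 0.62 on the scaled log2 ratio.

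The lncRNAs beside a second pair of copies, 1 at each gene, also differed in direction. Each was above 0.5 FPKM in only 1 group, so the filter allowed only the direction it took. Over all lncRNAs past the filter, 39.4% were called lower and 13.3% higher. Whether copies differ more often than other genes was not tested. Bach proteins are bZIP repressors, and the mammalian Bach2 is known for its role in B cells. MSTRG.9442.1 beside bach2a, whose primers are given above, was listed at 0 at 28°C and had 3.05 FPKM at 18°C. A mean of 0 over values that are never negative requires a 0 in each of the 3 control cultures. It was the first member by log2 ratio among those higher in the cold, a rank that depends on the 0.1 FPKM added because its control value was 0. MSTRG.14244.1 beside bach2b on chromosome 20, a transcript of 2665 nt, went the other way, with 0.885 and 0.163 FPKM and a log2 ratio of -1.90.

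Beside tbx6l, a T-box gene of the early mesoderm, 2 lncRNAs on chromosome 5 were called higher. MSTRG.24898.2, spliced from 8 exons over 178 kb (41684090 to 41862053), had 0.585 FPKM at 28°C and 10.1 FPKM at 18°C, with a log2 ratio of 3.90. MSTRG.24897.1, of 202 nt, was listed at 0 at 28°C and had 0.610 FPKM at 18°C. MSTRG.24898.2 overlaps 6 other listed lncRNAs. Of these, MSTRG.24898.4 of the same locus, which the table places at pimr59, had 1.36 and 14.7 FPKM, so transcripts of this locus were higher in the cold under either gene name.

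**Figure D3:**
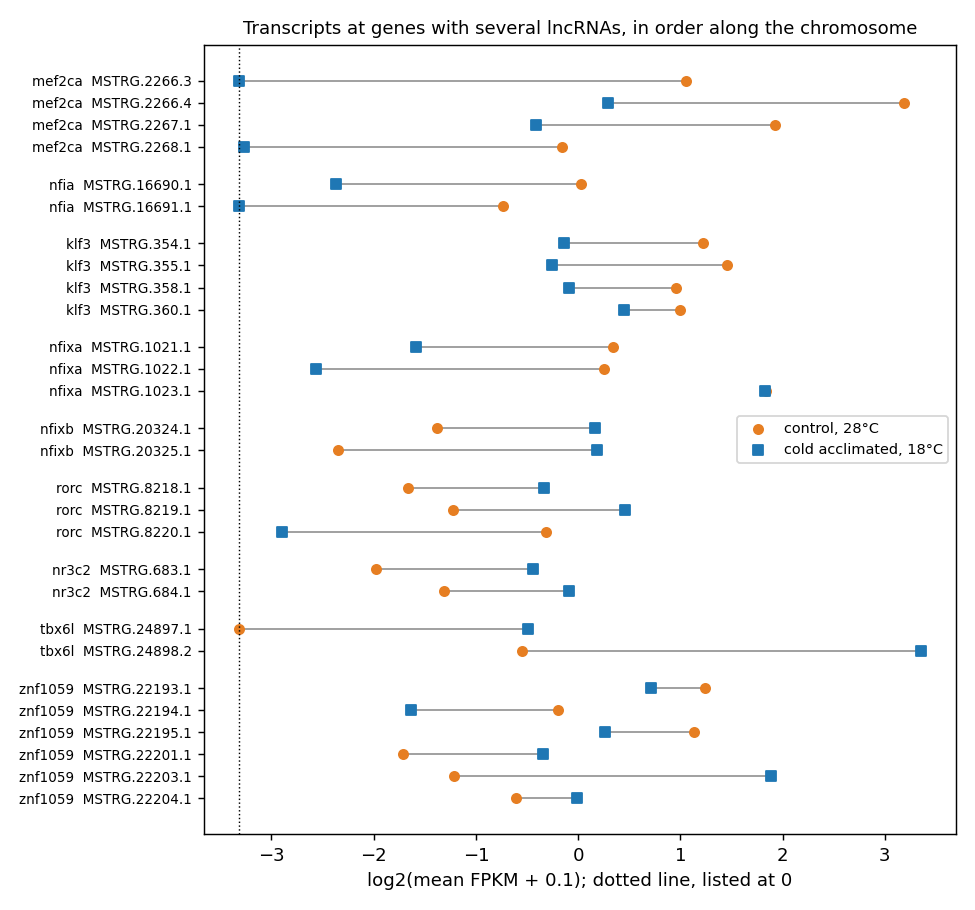
Level of each lncRNA beside 9 genes, as log2 of the mean FPKM plus 0.1, in control cells (orange circles) and cold acclimated cells (blue squares), with the transcripts of a gene in order of position. The 4 transcripts at mef2ca all lie to the left in cold acclimated cells, those at nfixb, nr3c2 and tbx6l all to the right, and rorc and znf1059 have both kinds.

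Krüppel-like factors are zinc finger proteins that bind GC-rich promoters, and KLF3 is known as a repressor. Beside klf3 lay 4 lncRNAs within 219 kb of chromosome 1. In control cells they had between 1.84 and 2.65 FPKM, and in cold acclimated cells between 0.738 and 1.26 FPKM. All 4 were lower in cold acclimated cells, and 3 of them were called, where 39.4% of all lncRNAs were. The most different was MSTRG.355.1 with 2.65 and 0.738 FPKM, which alone of the 3 was also called on the scaled values. It starts at 17666756, close to the end of MSTRG.354.1 at 17666344, and each has 1 exon. Whether they are pieces of a single transcript was not examined, so they may not count as separate observations. The smallest difference, at MSTRG.360.1, was -0.55 on the log2 scale and turned to 0.08 after scaling. MSTRG.644.1 beside klf5a stayed below the filter at 0.334 and 0.442 FPKM.

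Forkhead genes had 6 lncRNAs, each with a single exon, and every mean was lower in cold acclimated cells, although MSTRG.26676.1 beside foxp1b came to lie just above 0 on the scaled log2 ratio. Called lower were 4 of them (66.7%), against 39.4% of all lncRNAs. All 4 were above 0.5 FPKM only at 28°C, so the filter allowed only this direction. MSTRG.7313.1 beside foxn1, which in mammals governs the thymic epithelium, had 1.08 FPKM at 28°C and 0.130 FPKM at 18°C, with a log2 ratio of -2.35. MSTRG.24273.1 beside foxn4 had 0.794 and 0.151 FPKM. MSTRG.6850.1, of 4000 nt beside foxo1a, the gene of a factor held in check by insulin signalling, had 1.73 and 0.451 FPKM. MSTRG.26675.1 beside foxp1b had 1.01 and 0.323 FPKM, and alone of the 4 lost its call on the scaled values. The 2 that were not called were MSTRG.26676.1, which had 0.916 and 0.556 FPKM, and MSTRG.21442.1 beside foxj1a, a regulator of motile cilia, which had the highest level of the family at 2.82 and 1.44 FPKM.

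Nuclear receptors are factors that steroid hormones, retinoids and other lipids switch on or off. Of the 17 lncRNAs beside 11 such genes, 16 passed the filter. Of these, 5 were called lower and 5 higher (31.25% each), against 39.4% and 13.3% of all lncRNAs. All 5 called higher were above 0.5 FPKM only at 18°C, so the filter allowed only this direction. Most of those called lower were above it only at 28°C. On the scaled values 4 were called lower (25%) and 5 higher (31.25%), against 23.9% and 23.5% of all lncRNAs. The lncRNAs beside the corticosteroid receptor genes, which were themselves not measured here, stood on opposite sides. MSTRG.6070.1 beside nr3c1, the glucocorticoid receptor gene, had 2.08 FPKM at 28°C and 0.807 FPKM at 18°C, with a log2 ratio of -1.27 that scaling brought to -0.63, below the threshold, which left 4 receptor lncRNAs called lower. MSTRG.683.1 and MSTRG.684.1 beside nr3c2, the mineralocorticoid receptor gene, had 0.155 and 0.302 FPKM at 28°C, and 0.638 and 0.838 FPKM at 18°C. Both were called higher, from control levels below those of most members.

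Retinoic acid receptor genes had 3 lncRNAs. Beside rargb, MSTRG.2402.1 had 1.82 FPKM at 28°C and 0.440 FPKM at 18°C, and MSTRG.2403.1 had 0.567 and 0.258 FPKM, of which the former was called lower. MSTRG.3676.1 beside raraa, with 5 exons, had 1.66 and 1.75 FPKM. The single lncRNA beside esr1, an oestrogen receptor gene, had 0.997 and 0.624 FPKM. The last 2 were not called.

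ROR genes encode receptors that act in the circadian clock and in immune cells. At rorc on chromosome 16 neighbouring transcripts differed in direction within 62.3 kb. MSTRG.8218.1 had 0.215 FPKM at 28°C and 0.694 FPKM at 18°C, and MSTRG.8219.1 had 0.329 and 1.28 FPKM. MSTRG.8220.1, the next along the chromosome, had 0.704 and 0.0346 FPKM, with a log2 ratio of -2.58. Each of these 3 was above 0.5 FPKM in only 1 group, so the filter allowed only the direction it took. At roraa, MSTRG.19744.1 was called lower with 0.748 and 0.114 FPKM, and the other two had log2 ratios of -0.61 and -0.01, which scaling turned above 0. MSTRG.17846.1 beside nr1d4a, a gene of the Rev-erb group of clock repressors, was listed at 0 at 28°C and had 0.501 FPKM at 18°C. It passed the filter by the smallest margin of all members. MSTRG.29765.1 beside nr6a1a, which encodes the germ cell nuclear factor, was called lower with 1.299 and 0.351 FPKM, and MSTRG.29951.1 beside nr4a2a was not called with 0.779 and 0.550 FPKM.

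Homeobox genes gave few members, among which already known lncRNAs could not appear. The single one beside a HOX gene, MSTRG.11706.14 at hoxa3a on chromosome 19 (20199913 to 20204834), had 1.31 FPKM at 28°C and 4.93 FPKM at 18°C, with a log2 ratio of 1.84. By mean level it was the ninth of the 141 members. Meis and Pbx proteins bind DNA together with Hox proteins. The lncRNAs beside meis2a and pbx1a were called lower, as were 39.4% of all lncRNAs past the filter. MSTRG.10129.1 beside meis2a had 0.994 and 0.106 FPKM, and MSTRG.12754.1 beside pbx1a had 2.101 and 0.647 FPKM, the latter with a scaled log2 ratio of -0.93 and so no call on that scale. The LIM-homeobox genes were divided, with MSTRG.28967.1 beside lhx4 at 1.08 and 0.159 FPKM and MSTRG.1551.1 beside lhx6 at 0.0913 and 0.542 FPKM. The lncRNAs at meis2a and lhx4 were above 0.5 FPKM only at 28°C and the one at lhx6 only at 18°C. For them the filter allowed only these directions. MSTRG.19873.1 beside irx3b, at 1.59 and 2.18 FPKM, was called higher on the scaled values only. MSTRG.11361.1 beside pou2f2a stayed below the filter, at 0.488 FPKM in control cells and a listed 0.

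Among smaller families, the lncRNAs beside zbtb16a, zbtb20 and zbtb47b, genes of BTB zinc finger proteins, were all called lower, as were 39.4% of all lncRNAs. Each was above 0.5 FPKM only at 28°C, so the filter allowed only this direction. MSTRG.25504.1 beside zbtb20 had 1.76 FPKM at 28°C and 0.373 FPKM at 18°C, and MSTRG.15516.1 beside zbtb16a had 0.968 and 0.240 FPKM. MSTRG.18492.1 beside zbtb47b had 0.565 FPKM and a listed 0. MSTRG.9621.1 beside zbtb8a, listed at 0 at 28°C and at 0.418 FPKM at 18°C, stayed below the filter.

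NFAT factors respond to calcium through calcineurin, except NFAT5, which responds to osmotic stress. Their 3 lncRNAs were above the median level of the members in control cells and none was called, except the one at nfatc3a, which was called higher on the scaled values. MSTRG.27919.1 beside nfatc3a had 2.63 FPKM at 28°C and 4.02 FPKM at 18°C, while MSTRG.13202.1 beside nfatc4 had 3.11 and 1.59 FPKM. MSTRG.28482.1 beside nfat5b had 1.33 and 0.701 FPKM. MSTRG.29752.1 beside tcf7l1b, a factor of the Wnt pathway, was called lower, with 1.75 and 0.493 FPKM. It was above 0.5 FPKM only at 28°C, so the filter allowed only this direction, and 39.4% of all lncRNAs were called lower. The lncRNAs beside stat3, stat5b and the E protein gene tcf3a were lower by less than 2-fold. The one beside stat3 turned to 0.02 on the scaled log2 ratio.

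Other members beside developmental genes that were called were MSTRG.5373.1 at runx3, which was higher with 0.115 FPKM at 28°C and 0.853 FPKM at 18°C, MSTRG.3229.1 at pax7a, which was lower with 1.16 and 0.358 FPKM, and MSTRG.25494.1 at ebf2, which was lower with 0.708 and 0.246 FPKM. MSTRG.29050.1 at glis1b was also called lower, with 0.790 and 0.264 FPKM. Of all lncRNAs past the filter, 39.4% were called lower and 13.3% higher. The one at runx3 was above 0.5 FPKM only at 18°C, and those at pax7a, ebf2 and glis1b only at 28°C. The filter therefore allowed them only these directions. On the scaled values the calls at pax7a, ebf2 and glis1b were lost. Those at pax5, ebf1b, tfap2a, a neural crest gene, and prdm14 were not called, with log2 ratios between -0.58 and 0.53, although on the scaled values all but the one at pax5 were called higher. MSTRG.13784.1 beside rars2, a member by spelling only, was called higher with 0.377 and 2.22 FPKM, the only direction the filter allowed it.

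**Figure D4:**
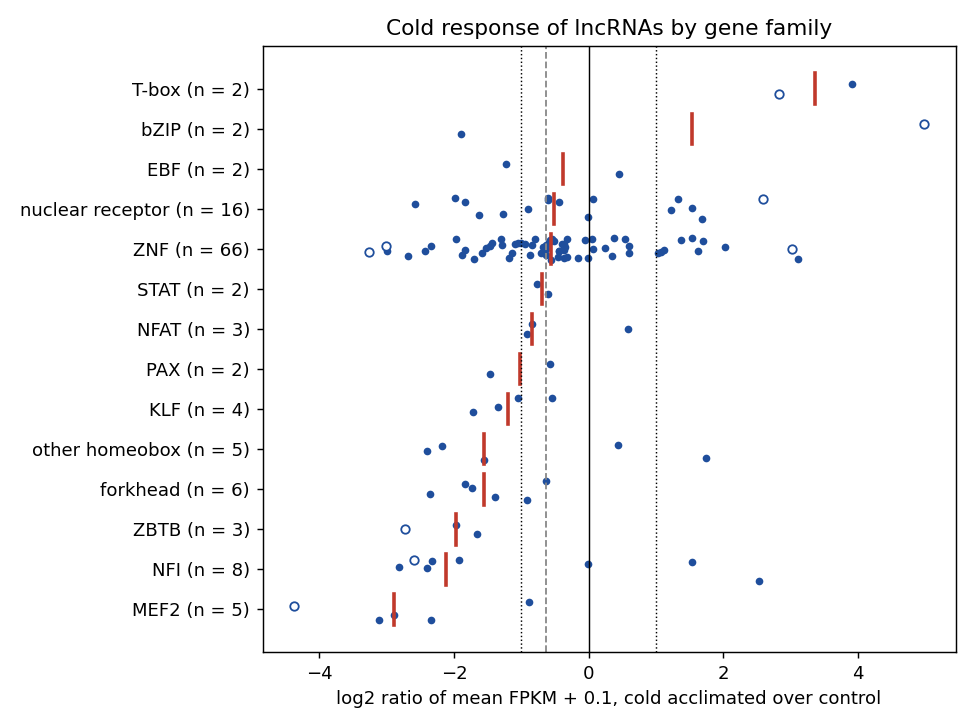
Log2 ratio of the 18°C over the 28°C value, on mean FPKM plus 0.1, for members above 0.5 FPKM by gene family; families with a single such member and the 2 genes matched by spelling are left out. Each point is a transcript, open points are listed at 0 in a group so that their place depends on the 0.1 added, red bars are family medians, dotted lines mark 2-fold and the dashed line the median of all lncRNAs (-0.63). The MEF2 median is -2.90, and the 66 ZNF members spread to both sides.

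The znf members had a median of 1.18 FPKM at 28°C and 0.806 FPKM at 18°C. On chromosome 4, 13 of the 38 past the filter were called lower (34.2%) and 7 higher (18.4%). Among the other lncRNAs of chromosome 4 these shares were 32.8% and 17.1%, so the znf members did not stand apart from their chromosome in these counts. On chromosome 22, 3 of 14 were called lower (21.4%) and 1 higher (7.14%), against 33.5% and 11.2% of the other lncRNAs there. Genes of this family can be near-identical, and reads from such copies can be assigned to the wrong one, so single values of znf members are less certain than those at other genes.

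Transcripts beside the same znf gene often differed. At znf1059, the gene with the most members, 6 lncRNAs lay within 200.5 kb of chromosome 4 (28916397 to 29116850). The 3 at the lower coordinates had 2.26, 0.771 and 2.09 FPKM at 28°C, and 1.54, 0.221 and 1.10 FPKM at 18°C. The 3 at the higher coordinates had 0.206, 0.331 and 0.555 FPKM at 28°C, and 0.690, 3.60 and 0.895 FPKM at 18°C. The former were thus lower and the latter higher in the cold, and the most different was MSTRG.22203.1, with a log2 ratio of 3.10. After scaling MSTRG.22193.1 of the former turned to 0.12. On the unscaled values only MSTRG.22194.1 was called lower, and only MSTRG.22201.1 and MSTRG.22203.1 higher. Of all lncRNAs past the filter, 39.4% were called lower and 13.3% higher. MSTRG.22194.1 was above 0.5 FPKM only at 28°C, and MSTRG.22201.1 and MSTRG.22203.1 only at 18°C. The filter therefore allowed them only these directions. At znf1160 on chromosome 22, by contrast, the 3 transcripts lay within 3.51 kb and all had log2 ratios between -0.85 and -0.33, of which only the lowest stayed below 0 after scaling. Each of these 3 has a single exon, and whether they are pieces of the same transcript was not examined.

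Called lower by the most among znf members with a value above 0 in both groups were MSTRG.23045.1 at znf1039, with 1.04 FPKM at 28°C and 0.0426 FPKM at 18°C, and MSTRG.22544.1 at znf1094, with 1.07 and 0.0822 FPKM. MSTRG.18937.1 at znf609a on chromosome 25 had 2.12 and 0.312 FPKM. These 3 had log2 ratios from -3.00 to -2.43. MSTRG.16549.1 at znf1166 and MSTRG.16192.1 at znf45l, both on chromosome 22, had 0.863 and 0.707 FPKM in control cells and were listed at 0 in cold acclimated cells. Higher in the cold were MSTRG.23394.1 at znf985, listed at 0 at 28°C and at 0.710 FPKM at 18°C, and MSTRG.16552.1 at znf1144, with 0.112 and 0.757 FPKM. The latter overlaps 2 lncRNAs at znf1157 that had log2 ratios of -0.71 and -0.68.

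Taking the genes with several lncRNAs together, 24 genes held 62 of the members. At 13 of them all transcripts were lower in cold acclimated cells, at 3 all were higher, and at 8 the directions differed. The 3 were nfixb, nr3c2 and tbx6l. All transcripts at nfixb and nr3c2, and MSTRG.24897.1 at tbx6l, were above 0.5 FPKM only in cold acclimated cells. Only the higher direction was therefore open to them, and their shared direction is not a separate finding. MSTRG.24898.2 at tbx6l was above 0.5 FPKM in both groups. The same limit holds for transcripts above 0.5 FPKM only in control cells, such as those at nfia, which could only be lower. On the scaled values, 11 of the 24 genes had all their transcripts on the same side and 13 did not. Any difference counted here, called or not, and overlapping or closely adjacent transcripts counted apart. Of all members 71.6% had the lower mean at 18°C, and of all lncRNAs 66.7% did. The tally by gene was not tested against these shares.

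A value of 0 was listed for 12 of the 141 members (8.51%), against 7.34% of all lncRNAs. In control cells these were the 5 at bach2a, tbx6l, nr1d4a, zbtb8a and znf985. In cold acclimated cells they were the 7 at mef2ca, nfia, pou2f2a, zbtb47b, znf1039, znf1166 and znf45l. The one at znf1039, MSTRG.23043.1, had 0.452 FPKM in control cells and did not pass the filter.

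The 6 members that did not pass the filter were the lncRNAs named above at klf5a, pou2f2a, zbtb8a and znf1039, MSTRG.22406.1 at znf1116 and MSTRG.27913.4 at nr1h3. The last, beside the gene of the liver X receptor alpha, had 0.188 FPKM at 28°C and 0.0124 FPKM at 18°C. The study kept only transcripts above 0.5 FPKM in a sample. Since the 3 control values sum to 0.564 FPKM and the 3 cold values to 0.0372 FPKM, a single control culture must have held at least 88.6% of the control sum. The level of this member at 28°C therefore came mostly from 1 culture, if the filter was applied as described.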

How the data were processed

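RNA was sequenced from 3 control and 3 cold acclimated ZF4 cultures as stranded, ribosomal RNA depleted, paired-end libraries. Per the study's methods and the submitters' processing notes, reads were aligned to GRCz10 with HISAT2 2.1.0 and assembled and merged with StringTie 1.3.3. Transcripts outside the known annotation were then filtered on length, exon number, coding potential and level. The FPKM values deposited by the authors come from StringTie, with 1 mean per group. Multiplied by 3, 8356 of the 8363 control values and 8347 of the cold values were whole in the 6th decimal within 0.1, as for means of 3 values of 6 decimals. The depth per library is unknown. The table also holds the authors' own log fold change, p-value, FDR and call, which were not used.

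Members were found by gene name, and families were assigned by name. The members and lists were chosen with earlier results of these data known. To each mean 0.1 FPKM was added before the log2 ratio was taken, transcripts not above 0.5 FPKM in either group were left out, and differences beyond 2-fold were called; with 1 value per group no test was made. For scaling, the median log2 ratio of all lncRNAs past the filter (-0.63) was subtracted. Overlap meant at least 1 shared base of the listed intervals. Positions are those of the file, counted from 1. Named were the 12 largest log2 ratios in each direction, the 8 highest means, members listed at 0, the extremes of each family of 3 or more, genes with 4 or more members, HOX members, bach2a and tbx6l; further members were named to complete their families after their values were seen. The calling step was tested on simulated data. Figures were drawn with matplotlib 3.10.9, and values computed in Python 3.11.15 with scipy 1.17.1, pandas 2.3.3 and numpy 2.4.6.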

Additional observations from a re-analysis of the deposited data

How the results depend on the processing

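Across 12 other settings, 37 of 51 recomputed values stayed close to the reported ones, and no median or difference changed sign. A count was held close within 1.5 times. A median was held close inside an interval taken from the spread of the member transcripts, which is not a spread between cultures. By that rule the median without znf genes, -0.90 in place of -0.64, was held close. The counts of members called, 24 higher and 53 lower, moved by over 1.5 times as follows. With 1 FPKM added in place of 0.1 they were 5 (3.70%, against 3.90% of all lncRNAs) and 7 (5.19%, against 7.99%). Above 1 FPKM in at least 1 group they were 11 (12.5%, against 11.4%) and 32 (36.4%, against 34.5%), and past a 4-fold threshold 10 (7.41%, against 6.02%) and 19 (14.1%, against 16.6%). With a mean over both groups above 0.5 FPKM, 13 were called higher (11.6%, against 10.4%). Without znf genes, an alternative chosen after seeing the data, they were 14 (20.3%, against 13.3%) and 32 (46.4%, against 39.4%) of 69 members. Both counts fell there because fewer members entered, while both shares were above the 17.8% and 39.3% reported. After the median of all lncRNAs was set to 0, 34 were called lower, the median log2 ratio of the members was -0.0062 in place of -0.64, and 51.1% of them were lower in place of 71.9%. With 1 FPKM added the median was -0.37. The median of the members less that of lncRNAs at other named genes was -0.06, and -0.32 without znf genes. Fewer members enter under the stricter filters. The shift without znf genes follows from the medians of the members kept (-0.90) and left out (-0.56). No paired analysis was possible because the table gives 1 mean per group, and for the same reason no culture could be left out. Levels near 0.5 FPKM, without a known depth, are the least certain.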
